A study of Homo sapiens with 9 samples.

Results

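Antisense RNA genes are named after a neighbouring protein-coding gene, the sense gene, and carry its symbol with the ending -AS and a number. The deposited table held 1119 such rows among 25540 gene symbols, and the 224 rows with a mean of at least 1 TPM (a length-corrected share of all transcripts in a library) over the 9 libraries are described here. The other rows were not tested, and 513 of the 1119 were listed at 0 in every library. The members were chosen by name and selected on their mean TPM over all 9 libraries, so their levels are a description. The members belong to 222 sense symbols, of which 221 members had a row for the sense gene, and in 183 pairs the sense gene also averaged at least 1 TPM.

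All libraries came from total RNA of CAL-1, an established line grown from a human blastic plasmacytoid dendritic cell neoplasm, BPDCN, which is a leukaemia of plasmacytoid dendritic cells. In KHSRPi#1 and KHSRPi#2 the gene KHSRP was repressed by CRISPR interference, in which a catalytically dead Cas9 is guided to a gene to block its transcription, and both groups carry the genotype label KHSRP knockdown. NTC, the control, carries the genotype label WT. Each group had 3 replicates of the same line, 9 libraries in all, under 1 shared batch label. What distinguishes #1 from #2 is not stated in the labels.

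Antisense transcripts are mostly long noncoding RNAs that are capped, often spliced, and made from the strand opposite to a coding gene. Many start at the sense gene's own promoter, since promoters of active genes fire in both directions, and others begin inside or beyond the gene and run across its end. Some act on their sense gene through transcription or by pairing with its mRNA, some act elsewhere, and many have no known role. Nuclear antisense RNA is often short-lived because the RNA exosome degrades it. KHSRP encodes a KH-domain RNA-binding protein that binds AU-rich elements, recruits decay enzymes to mRNA and takes part in microRNA processing. The sources used here do not state whether counting took strand into account. If it did not, reads of an antisense gene and its sense gene cannot be told apart where the 2 share exonic bases.

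The promoters of the 4 members with the smallest unadjusted p among those higher in KHSRPi libraries are shown. Each runs from 250 bases before to 50 bases after the RefSeq start (build GRCh38.p14). The ENO1-AS1 window is chr1:8878585-8878884 on the + strand. The TMCC1-AS1 window, listed by RefSeq as TMCC1-DT, is chr3:129893621-129893920 on the + strand. The PPP3CB-AS1 window is chr10:73495502-73495801 on the + strand, and the SEMA6A-AS1 window is chr5:116447248-116447547 on the + strand. Capitals mark the letters GGGCGG or its reverse complement CCGCCC, the core of the GC box bound by Sp factors.

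ENO1-AS1: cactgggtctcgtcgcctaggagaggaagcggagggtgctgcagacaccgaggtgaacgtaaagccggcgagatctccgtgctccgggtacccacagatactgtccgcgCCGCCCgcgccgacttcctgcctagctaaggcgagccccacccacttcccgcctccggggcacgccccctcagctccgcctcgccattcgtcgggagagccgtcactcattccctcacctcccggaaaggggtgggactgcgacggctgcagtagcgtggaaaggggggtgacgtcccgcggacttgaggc

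TMCC1-AS1: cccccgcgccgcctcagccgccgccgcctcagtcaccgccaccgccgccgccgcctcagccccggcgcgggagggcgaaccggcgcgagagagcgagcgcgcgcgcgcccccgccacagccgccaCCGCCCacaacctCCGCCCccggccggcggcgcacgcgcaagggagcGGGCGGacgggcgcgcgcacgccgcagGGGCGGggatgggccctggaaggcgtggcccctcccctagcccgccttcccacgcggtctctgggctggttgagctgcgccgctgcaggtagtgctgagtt

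PPP3CB-AS1: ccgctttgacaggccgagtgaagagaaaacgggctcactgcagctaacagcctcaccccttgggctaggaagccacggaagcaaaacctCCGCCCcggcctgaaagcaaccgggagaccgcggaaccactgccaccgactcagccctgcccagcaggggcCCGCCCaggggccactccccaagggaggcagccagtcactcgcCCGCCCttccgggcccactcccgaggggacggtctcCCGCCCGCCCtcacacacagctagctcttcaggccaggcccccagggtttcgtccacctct

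SEMA6A-AS1: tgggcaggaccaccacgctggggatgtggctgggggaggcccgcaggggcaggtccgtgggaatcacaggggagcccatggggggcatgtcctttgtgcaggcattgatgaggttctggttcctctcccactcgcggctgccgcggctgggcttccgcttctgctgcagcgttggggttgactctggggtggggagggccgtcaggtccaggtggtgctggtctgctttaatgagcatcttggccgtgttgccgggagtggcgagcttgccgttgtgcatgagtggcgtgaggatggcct

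The ENO1-AS1 window held 1 match, the TMCC1-AS1 window 4 and the PPP3CB-AS1 window 5, of which the last 2 overlap, while SEMA6A-AS1 had 0. The GC content was 80.3% at TMCC1-AS1, 68% at PPP3CB-AS1, 67.7% at ENO1-AS1 and 65.3% at SEMA6A-AS1. A promoter was found for 185 of the 224 members, 150 by symbol and the others by synonym. GGGCGG on either strand was present in 63.2% of these 185 windows and in 44.6% of all 27305 promoters in the table. CCGGAAG on either strand, a core of ETS factor sites, was present in 17.3% of the members' windows and in 10.7% of all. TATAAA on either strand, the TATA box, was present in 7.03% of the members' windows and in 12% of all. The members had passed the level threshold, while the promoters in the table were not limited to genes that did. These shares therefore do not separate antisense genes from other expressed genes. The members with GGGCGG (117) had a median log2 fold change of 0.11 between KHSRPi and NTC libraries, and those without it (68) had a median of 0.12.

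KHSRP had 35.1 TPM in each KHSRPi#1 library, 35.8, 33.7 and 36.5 TPM in KHSRPi#2, and 253, 244 and 216 TPM in NTC. It averaged 35.2 ± 0.95 TPM in the 6 KHSRPi libraries and 237 ± 19.1 TPM in the 3 NTC libraries (SD), which is 14.8% of the NTC level. Replicate 3 of every group differed from replicates 1 and 2: on the first principal component (38.3% of the variance) they lay between 12.3 and 14.1, and the others between −8.79 and −3.96. Results are therefore given without a covariate, with a term for replicate 3, and with replicates 1 and 2 alone. Relative depth ran from 0.98 to 1.52 times NTC replicate 1 in KHSRPi libraries and from 1 to 1.82 times in NTC libraries. Of 12 markers of plasmacytoid dendritic cells and BPDCN, 10 averaged at least 1 TPM. IL3RA, which encodes CD123, was listed at 0 in all libraries. LILRA4 averaged 1.00 TPM in KHSRPi#1, 1.02 TPM in KHSRPi#2 and 0.62 TPM in NTC. Summed T cell and erythroid markers did not exceed 0.16 TPM in any library. Summed monocyte markers ran from 37.1 to 81.5 TPM in KHSRPi and from 36.9 to 91.0 TPM in NTC, and summed NK cell markers from 5.95 to 9.95 TPM in KHSRPi and from 8.93 to 11.9 TPM in NTC. Their part in the results was not tested.

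The antisense members were low in this line. Their median mean level was 3.22 TPM, against 21.2 TPM over all 10939 tested genes. Of the 224, 62 lay between 1 and 2 TPM, 144 under 5 TPM, and 41 at 10 TPM or more. LRRC75A-AS1 (chr17:16438822-16478678, + strand), also known as the snoRNA host gene SNHG29, led with a mean of 649 TPM, 29.4% of all antisense TPM. It had 656, 646 and 656 TPM in KHSRPi#1, 641, 640 and 651 TPM in KHSRPi#2, and 665, 642 and 645 TPM in NTC. The groups overlapped, and its log2 fold change was −0.00 ± 0.03 (SE). Its sense gene LRRC75A was at or near 0 in every library.

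OIP5-AS1 (chr15:41283990-41309737, + strand), a conserved long noncoding RNA also called Cyrano, was the second most abundant member. It had 104, 106 and 120 TPM in KHSRPi#1, 121, 112 and 141 TPM in KHSRPi#2, and 113, 101 and 121 TPM in NTC. The groups overlapped, with a log2 fold change of 0.07 ± 0.08 (SE). THAP9-AS1, VPS9D1-AS1, NUTM2A-AS1, EPB41L4A-AS1, FGD5-AS1 and PITPNA-AS1 followed, and in single libraries these 6 ranged from 32.6 to 55.8 TPM in KHSRPi and from 28.7 to 56.9 TPM in NTC. FGD5-AS1 had a log2 fold change of 0.05 ± 0.06 (SE). None of these 8 most abundant members was called in any fit of the KHSRPi groups against NTC. Just inside the level threshold lay MEF2C-AS1 at 1.01 TPM, CAPN10-AS1 at 1.01 TPM, GAS6-AS2 at 1.01 TPM and ZNF529-AS1 at 1.00 TPM. Just outside it lay TDRKH-AS1 at 0.97 TPM, DCST1-AS1 at 0.92 TPM and PRC1-AS1 at 0.91 TPM.

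Positions were taken from GENCODE 29, which uses the build of the deposited table, hg38. In 77 members the antisense gene overlapped the 5′ end of the sense gene, in 50 the 3′ ends overlapped, and in 33 the antisense gene lay wholly inside the sense gene. In 41 the genes stood head to head with no overlap, in 14 the sense gene lay inside the antisense gene, 1 lay apart, and 8 could not be placed. Of the 216 placed members, 150 shared exonic bases with the sense gene. A start within 1000 bases of a sense start was found in 142 of them.

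The antisense RNA was the minor transcript in most of the 183 pairs whose sense gene averaged at least 1 TPM. TPM is a level per length, so the 2 genes of a pair can be compared. Only 18 of the 183 antisense RNAs had a higher mean level than their sense gene, the median antisense level was 12.6% of the sense level, and 77 members lay under 10% of it. In the other pairs, among the 221 members with a row for the sense gene, the sense gene averaged under 1 TPM. There the antisense RNA was higher by the choice of members. Among the 183 pairs the largest ratio was that of TSPOAP1-AS1, which averaged 27.6 TPM, or 2537% of TSPOAP1. TSPOAP1 encodes a protein that binds the mitochondrial translocator protein. ATP2A1-AS1 stood at 1942% of ATP2A1, a calcium pump of the sarcoplasmic reticulum, and THAP9-AS1 at 1039% of THAP9. PXN-AS1 reached 919% of PXN, SLC9A3-AS1 465% of SLC9A3 and LMLN-AS1 449% of LMLN. At the other end, NDUFV2-AS1 stood at 0.13% of NDUFV2, a subunit of respiratory complex I. CSE1L-AS1 stood at 0.29% of CSE1L, a nuclear export factor, ENO1-AS1 at 0.30% of ENO1 and PCNA-AS1 at 0.32% of PCNA, the DNA polymerase clamp. Head-to-head members averaged more than most (median 5.97 TPM), and those overlapping at the 3′ ends had a median of 2.86 TPM. Across the 183 pairs the levels were hardly related (Spearman's correlation −0.12, n = 183 pairs from the same libraries, a description).

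**Figure D1:**
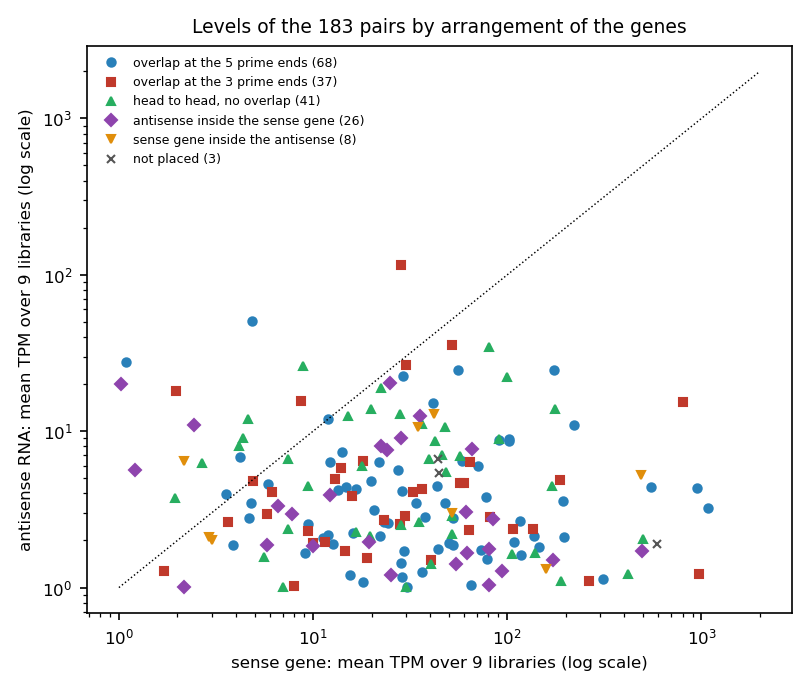
Mean TPM over the 9 libraries of each antisense RNA (vertical axis, log scale) against its sense gene (horizontal axis, log scale) for 183 pairs, with marker shape and colour for the arrangement of the 2 genes. Points above the dotted line are the 18 pairs in which the antisense RNA had the higher level.

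Antisense RNAs were on the whole slightly more abundant in KHSRPi cells than in NTC cells. The members summed to 2158, 2165 and 2341 TPM in KHSRPi#1, 2234, 2230 and 2361 TPM in KHSRPi#2, and 2078, 2117 and 2171 TPM in NTC. The ranges overlapped. At each replicate number both KHSRPi libraries were above the NTC library, a description, since the numbers are not treated as pairing the samples. In bulk RNA, a change in the share of cells of a type and a change in RNA per cell cannot be told apart. The log2 fold change of TPM + 1, mean of the KHSRPi groups minus NTC, was above 0 in 175 of 224 members (78.1%), against 58.3% of all tested genes. Its median was 0.12, against 0.02 over all tested genes. With replicates 1 and 2 alone the median was 0.10 and 160 members were above 0 (background 56.5%), against a median of 0.02 over all genes. Quantile normalization gave a median of 0.08, against −0.00 over all genes.

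No member was called at an adjusted p under 0.05 in the comparison of the mean of the KHSRPi groups with NTC (limma, Benjamini-Hochberg over 10939 genes). The background was 0.0457% of all tested genes called higher and 0.0366% called lower. At an unadjusted p under 0.05, 44 members were higher and 2 were lower, against 5.32% and 2.61% of all tested genes. All 6 KHSRPi libraries lay above all 3 NTC libraries for 18 members (8.04%), against a background of 3.1%. All 6 lay below for 1 member, A1BG-AS1, against a background of 1.57%. With the term for replicate 3, 9 members were called higher and 0 lower, against backgrounds of 1.27% and 0.485%. At an unadjusted p under 0.05 that fit gave 68 higher and 4 lower members, against backgrounds of 11.1% and 6.36%. With replicates 1 and 2 alone, 0 members were called higher (background 0.0548%) and SEPT7-AS1 was called lower (background 0.0274%), with 43 and 6 members at an unadjusted p under 0.05 (backgrounds 5.91% and 4.02%).

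**Figure D2:**
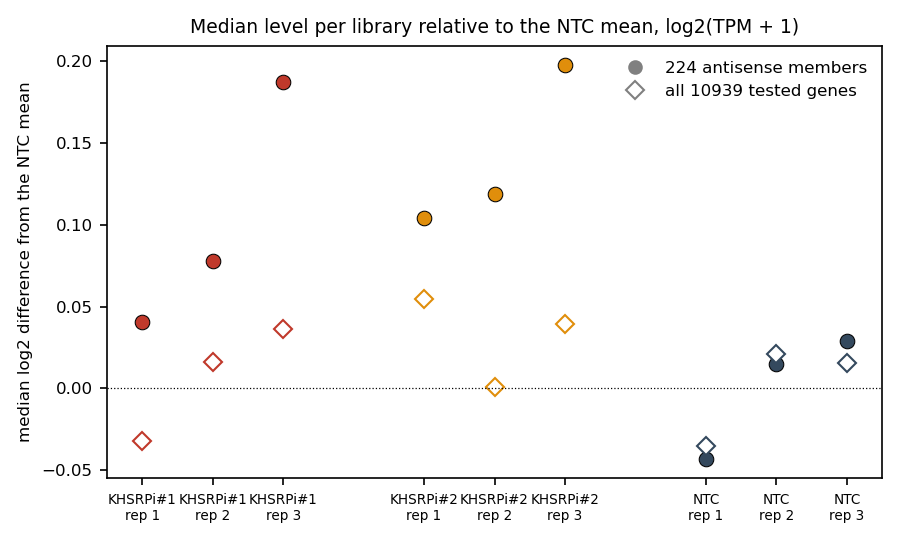
Median over the 224 antisense members (circles) and over all 10939 tested genes (open diamonds) of the log2(TPM + 1) difference from the NTC mean, for each of the 9 libraries. The antisense median lay between 0.04 and 0.20 in the 6 KHSRPi libraries and between −0.04 and 0.03 in the 3 NTC libraries.

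Set against the NTC library of the same replicate number, 132 to 162 of the 224 members were higher in a KHSRPi library (58.9% to 72.3%). Between 41.0% and 68.1% of all tested genes were. The members' share was above that of all tested genes in each comparison, by unlike amounts. It was 71.9% against 68.1% in KHSRPi#2 replicate 1, the closest, and 67.4% against 41.0% in KHSRPi#2 replicate 2, the furthest apart. The shift was small for single members: the middle 50% of log2 fold changes ran from 0.01 to 0.24 among the members and from −0.04 to 0.08 among all tested genes. Only 10 members exceeded 0.5 on the log2 scale and 2 lay below −0.5. Because the threshold was set on the mean of all libraries, a row high in 1 group is more likely to pass it. In 201 members each of the 3 groups averaged at least 1 TPM, 16 members reached 1 TPM in the KHSRPi mean but not in NTC, and 2 the reverse. The median log2 fold change of the 201 was 0.12.

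**Figure D3:**
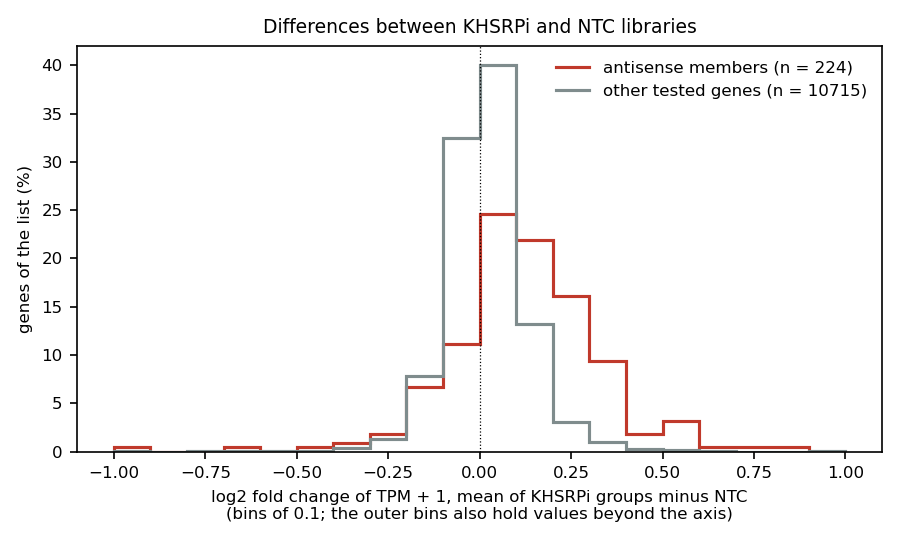
Share of the 224 antisense members (red) and of the other 10715 tested genes (grey) in each bin of 0.1 of the log2 fold change of TPM + 1, mean of KHSRPi groups minus NTC. The antisense curve lies to the right of the grey one, with medians of 0.12 and 0.02.

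ENO1-AS1 (chr1:8878835-8879894, + strand) was the 1 member called without a covariate, and it was called in KHSRPi#2. It starts 115 bases from a start of ENO1, the glycolytic enzyme enolase 1, overlaps that gene by 416 bases and shares 126 exonic bases with it. ENO1-AS1 had 2.07, 2.55 and 2.77 TPM in KHSRPi#1, 6.68, 4.00 and 6.03 TPM in KHSRPi#2, and 1.57, 1.60 and 1.94 TPM in NTC. All 6 KHSRPi libraries lay above NTC, and the 3 groups did not overlap one another. The log2 fold change in KHSRPi#2 was 1.26 ± 0.16 (SE, adjusted p = 0.0218), against a background of 0.0366% of tested genes called higher in KHSRPi#2. It was 0.35 ± 0.16 in KHSRPi#1 (SE, adjusted p = 0.937). The difference of KHSRPi#2 minus KHSRPi#1 was 0.91 ± 0.16 (SE, unadjusted p = 0.000167, adjusted p = 0.913), so it did not pass the correction.

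The call of ENO1-AS1 in KHSRPi#2 held with the replicate 3 term (adjusted p = 0.00164) and was lost with replicates 1 and 2 alone (adjusted p = 0.0528). It was also lost when 1 of 5 libraries was left out. The adjusted p was then 0.126 without KHSRPi#2 replicate 1, 0.115 without KHSRPi#2 replicate 3 and 0.0505 without KHSRPi#1 replicate 2. Without NTC replicate 1 it was 0.147, and without NTC replicate 2 it was 0.154. Over all its alternatives the log2 fold change ran from 0.65 to 1.62 and the adjusted p from 0.000199 to 0.154. ENO1 itself stayed level, with 1115, 1135 and 983 TPM in KHSRPi#1, 1170, 1073 and 977 TPM in KHSRPi#2, and 1101, 1111 and 1006 TPM in NTC (log2 fold change 0.00 ± 0.07, SE). Its replicate 3 libraries were the lowest in every group.

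The other 8 members called with the replicate 3 term were PPP3CB-AS1, TMCC1-AS1, SEMA6A-AS1, MAP3K14-AS1, PCED1B-AS1, ZNF337-AS1, TSPOAP1-AS1 and IL10RB-AS1. PPP3CB-AS1 (chr10:73495525-73520070, + strand) overlaps the 5′ end of PPP3CB, a catalytic subunit of the phosphatase calcineurin, by 500 bases. It had 4.29, 4.3 and 3.52 TPM in KHSRPi#1, 3.95, 4.04 and 3.75 TPM in KHSRPi#2, and 2.72, 2.97 and 1.83 TPM in NTC. All KHSRPi libraries were above NTC, and replicate 3 was the lowest in each group. The log2 fold change was 0.52 ± 0.11 (SE), with an adjusted p of 0.241 without a covariate and 0.00877 with the term. With replicates 1 and 2 alone it was 0.42 (adjusted p = 0.14).

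TMCC1-AS1 (chr3:129893811-129918575, + strand) lies head to head with TMCC1, a gene for an endoplasmic reticulum protein, with 204 bases between them. It had 9.33, 10.4 and 11.0 TPM in KHSRPi#1, 9.50, 8.87 and 10.1 TPM in KHSRPi#2, and 6.98, 7.55 and 7.43 TPM in NTC. The KHSRPi and NTC groups did not overlap. The log2 fold change was 0.38 ± 0.07 (SE), with an adjusted p of 0.128 without a covariate and 0.00887 with the term. With replicates 1 and 2 alone it was 0.35 (adjusted p = 0.182).

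SEMA6A-AS1 (chr5:116447547-116508276, + strand) lies inside SEMA6A, a transmembrane semaphorin whose own level was at or under 0.03 TPM in every library. It had 1.83, 2.21 and 2.79 TPM in KHSRPi#1, 3.06, 3.50 and 3.01 TPM in KHSRPi#2, and 1.08, 1.77 and 1.63 TPM in NTC. The KHSRPi and NTC groups did not overlap, though KHSRPi#1 replicate 1 was close to NTC replicate 2. The log2 fold change was 0.58 ± 0.12 (SE), with an adjusted p of 0.218 without a covariate and 0.0275 with the term. With replicates 1 and 2 alone it was 0.58 (adjusted p = 0.157).

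MAP3K14-AS1 (chr17:45247925-45268630, + strand) overlaps the 3′ end of MAP3K14, the kinase NIK of the noncanonical NF-kappaB pathway. It had 1.64, 1.94 and 4.25 TPM in KHSRPi#1, 1.96, 2.88 and 3.73 TPM in KHSRPi#2, and 1.27, 1.05 and 1.99 TPM in NTC. Replicate 3 was the highest in every group, and NTC replicate 3 lay above 3 of the 6 KHSRPi libraries. The log2 fold change was 0.59 ± 0.23 (SE), with an adjusted p of 0.567 without a covariate and 0.0285 with the term.

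PCED1B-AS1 had 21.6, 22.7 and 20.1 TPM in KHSRPi#1, 21.5, 23.7 and 19.1 TPM in KHSRPi#2, and 18.3, 18.8 and 16.6 TPM in NTC. It was above NTC in all 6 KHSRPi libraries, with a log2 fold change of 0.24 ± 0.08 (SE) and an adjusted p of 0.453 without a covariate and 0.0302 with the term. ZNF337-AS1, beside a zinc finger gene, had 6.29, 6.08 and 6.33 TPM in KHSRPi#1, 7.14, 6.39 and 6.36 TPM in KHSRPi#2, and 4.25, 5.57 and 4.21 TPM in NTC. The KHSRPi and NTC libraries did not overlap, with a log2 fold change of 0.40 ± 0.09 (SE) and an adjusted p of 0.245 without a covariate and 0.033 with the term.

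IL10RB-AS1 stands head to head with IL10RB, the receptor chain shared by the interleukin-10 family. It had 9.52, 11.4 and 6.28 TPM in KHSRPi#1, 10.1, 10.5 and 10.8 TPM in KHSRPi#2, and 6.51, 7.89 and 5.27 TPM in NTC. KHSRPi#1 replicate 3 lay within the NTC range, and the adjusted p was 0.466 without a covariate and 0.0483 with the term (log2 fold change 0.50 ± 0.16, SE). TSPOAP1-AS1 had 25.3, 26.1 and 34.9 TPM in KHSRPi#1, 29.1, 25.5 and 34.3 TPM in KHSRPi#2, and 23.6, 22.2 and 27.3 TPM in NTC. Its replicate 3 libraries were the highest in each group, and the adjusted p was 0.644 without a covariate and 0.0448 with the term (log2 fold change 0.24 ± 0.12, SE).

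**Figure D4:**
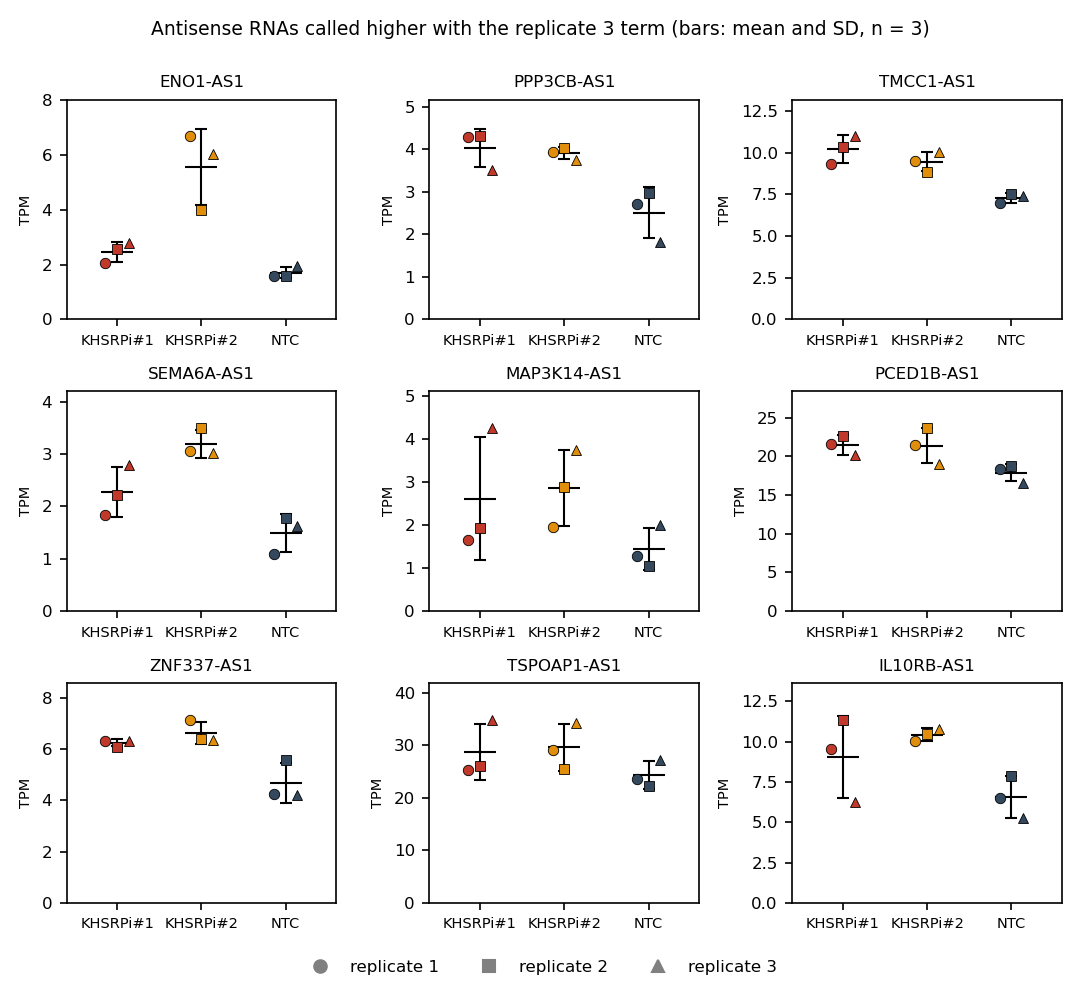
TPM of the 9 antisense RNAs called higher with the replicate 3 term, in each library, for KHSRPi#1, KHSRPi#2 and NTC (points, shape by replicate number; bars, mean and SD, n = 3). In PPP3CB-AS1, TMCC1-AS1, ENO1-AS1, SEMA6A-AS1, PCED1B-AS1 and ZNF337-AS1 all KHSRPi points lie above all NTC points.

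How far these 9 calls rested on single libraries differed between members. With the term kept and 1 library left out at a time, ENO1-AS1, PPP3CB-AS1 and TMCC1-AS1 stayed called in 8 of 9 fits. MAP3K14-AS1 did so in 4, SEMA6A-AS1 in 3, PCED1B-AS1, ZNF337-AS1 and IL10RB-AS1 in 2 fits each, and TSPOAP1-AS1 in 1. The number of members called ran from 2 to 8, and the lowest was without NTC replicate 3, when none of the 9 was called. The 2 then called were FOXN3-AS1, higher, which is named here after its values were seen, and SEPT7-AS1, lower.

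Near these calls, COX10-AS1, MZF1-AS1 and PSMD6-AS2 had the next smallest p among the higher members and passed in neither fit. COX10-AS1, whose start lies 1 base from that of the heme A synthesis gene COX10, had 14.4, 15.2 and 15.5 TPM in KHSRPi#1, 16.0, 14.2 and 13.3 TPM in KHSRPi#2, and 12.6, 12.2 and 12.1 TPM in NTC. The KHSRPi and NTC libraries did not overlap, with an adjusted p of 0.394 without a covariate and 0.0663 with the term. MZF1-AS1 spans the myeloid zinc finger gene MZF1, and its adjusted p was 0.394 without a covariate and 0.0747 with the term (log2 fold change 0.41 ± 0.11, SE). PSMD6-AS2 overlaps the 3′ end of the proteasome subunit gene PSMD6, with an adjusted p of 0.394 without a covariate and 0.0825 with the term (log2 fold change 0.33 ± 0.09, SE).

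Fewer antisense RNAs were lower than higher in KHSRPi cells, 49 against 175. Of those lower, 2 had an unadjusted p under 0.05 in limma without a covariate. A1BG-AS1, which overlaps the 5′ end of the plasma glycoprotein gene A1BG, had 2.44, 2.23 and 1.98 TPM in KHSRPi#1, 2.23, 2.33 and 2.51 TPM in KHSRPi#2, and 3.08, 3.19 and 2.96 TPM in NTC. All KHSRPi libraries lay below NTC, with a log2 fold change of −0.31 ± 0.08 (SE) and an adjusted p of 0.387 without a covariate and 0.0703 with the term. SEPT7-AS1, head to head with the septin gene SEPT7, had 0.45, 0.86 and 2.42 TPM in KHSRPi#1, 1.24, 0.84 and 1.60 TPM in KHSRPi#2, and 3.31, 2.33 and 1.69 TPM in NTC. KHSRPi#1 replicate 3 lay within the NTC range, and the log2 fold change was −0.65 ± 0.25 (SE, adjusted p = 0.56). With replicates 1 and 2 alone it was −1.05, with an adjusted p of 0.046. ASH1L-AS1, MELTF-AS1, URB1-AS1, GAS6-AS1 and ZEB1-AS1 had log2 fold changes between −0.36 and −0.12 and adjusted p-values of 0.633 or more. FAM83C-AS1 was listed at 0 in 3 of 6 KHSRPi libraries and 1 of 3 NTC libraries, and reached 2.37 TPM in KHSRPi#1 and 4.83 TPM in NTC.

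Both KHSRPi groups showed the shift. The median log2 fold change of the members was 0.10 in KHSRPi#1 and 0.14 in KHSRPi#2, against 0.01 and 0.03 over all tested genes. In KHSRPi#1, 161 members were above 0 (background 52.7%), and in KHSRPi#2, 181 were (background 61.9%). No member was called in KHSRPi#1 without a covariate, with 23 higher and 3 lower at an unadjusted p under 0.05 (backgrounds 3.15% and 2.08%). The background of genes called lower without a covariate was 0.0183% in each KHSRPi group. In KHSRPi#2, 35 members were higher and 1 lower at an unadjusted p under 0.05 (backgrounds 5.35% and 1.58%). With the term, TMCC1-AS1 and PPP3CB-AS1 were called in KHSRPi#1 (backgrounds 0.439% higher and 0.238% lower). ENO1-AS1, SEMA6A-AS1, PPP3CB-AS1, TMEM9B-AS1 and MAP3K14-AS1 were called in KHSRPi#2 (backgrounds 0.603% higher and 0.201% lower). TMEM9B-AS1 had 2.23, 1.62 and 2.64 TPM in KHSRPi#1, 2.45, 2.45 and 3.54 TPM in KHSRPi#2, and 1.60, 1.41 and 2.02 TPM in NTC. Its log2 fold change in KHSRPi#2 was 0.51, with an adjusted p of 0.0437 with the term. Both KHSRPi groups were compared with the same NTC libraries.

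No member was called between the knockdown groups, KHSRPi#2 minus KHSRPi#1, with or without the term. Without a covariate 6 members were higher and 2 lower at an unadjusted p under 0.05, against backgrounds of 0.649% and 0.402%. The log2 difference was above 0 in 137 members (background 67%). ARHGAP31-AS1, which lies inside ARHGAP31, had 6.33, 3.83 and 4.25 TPM in KHSRPi#1, 2.99, 1.49 and 3.14 TPM in KHSRPi#2, and 3.30, 1.61 and 2.91 TPM in NTC. The 3 KHSRPi#1 libraries lay above the other 6, with a log2 fold change against NTC of 0.69 ± 0.24 (SE, adjusted p = 0.896). The difference of KHSRPi#2 minus KHSRPi#1 was −0.73 ± 0.24 (SE, unadjusted p = 0.0137), which did not pass the correction.

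Sense partners stayed close to all tested genes. Their 181 tested genes had a median log2 fold change of 0.02, the value of all tested genes, and 110 were above 0. None was called without a covariate, with 8 higher and 5 lower at an unadjusted p under 0.05 (backgrounds 5.32% and 2.61%). With the term, 1 was called higher and 1 lower, VLDLR, a lipoprotein receptor, at 0.26 and HLX, a homeobox factor, at −0.23 on the log2 scale. Both are named here after their values were seen. The log2 fold changes of antisense and sense genes had the same sign in 102 of 183 pairs. Their Spearman's correlation was −0.09 and Pearson's r −0.06 over these 183 pairs, which share the 9 libraries, as a description.

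Within pairs, the difference of antisense minus sense log2 fold change was above 0 in 127 of 183, with a median difference in log2 fold change of 0.11. An exact permutation test over the 84 divisions of the 9 libraries into 6 and 3 gave a two-sided p under 0.05 in 18 pairs, 15 above 0 and 3 below 0. When any 1 NTC library was left out the count was 0, since the design then allows no p under 0.05. The smallest p this design allows is 0.0238, and after adjustment over the 183 pairs the smallest was 0.436. PPP3CB-AS1 minus PPP3CB was 0.50 (exact p = 0.0238) and TMCC1-AS1 minus TMCC1 was 0.40 (exact p = 0.0238). ENO1-AS1 minus ENO1 was 0.80 (exact p = 0.0476), the largest difference of all pairs.

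Of the other large differences named here, those of MELTF-AS1 and ASH1L-AS1 had an exact p under 0.05 and the rest did not. CDC37L1-AS1 had 18.1, 8.70 and 18.9 TPM in KHSRPi#1, 21.2, 12.2 and 5.46 TPM in KHSRPi#2, and 4.07, 11.0 and 7.96 TPM in NTC. Its groups overlapped, and the difference from CDC37L1, the gene of a chaperone partner, was 0.73 (exact p = 0.167). MAP3K14-AS1 differed from MAP3K14 by 0.75 (exact p = 0.0952). The test ignores replicate number. At each replicate number the difference was larger in both KHSRPi libraries than in the NTC library. This is a description, since the numbers are not treated as pairing the samples. NDST1-AS1 differed from NDST1 by 0.67 (exact p = 0.262). In the other direction SEPT7-AS1 differed from SEPT7 by −0.73 (exact p = 0.0952) and MELTF-AS1 from MELTF, the gene of melanotransferrin, by −0.60 (exact p = 0.0476). PARD3-AS1 differed from PARD3 by −0.52 (exact p = 0.476), with 0 in 3 of 6 KHSRPi libraries and 1 of 3 NTC libraries. ASH1L-AS1 differed from ASH1L, the gene of a histone methyltransferase, by −0.34 (exact p = 0.0476).

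**Figure D5:**
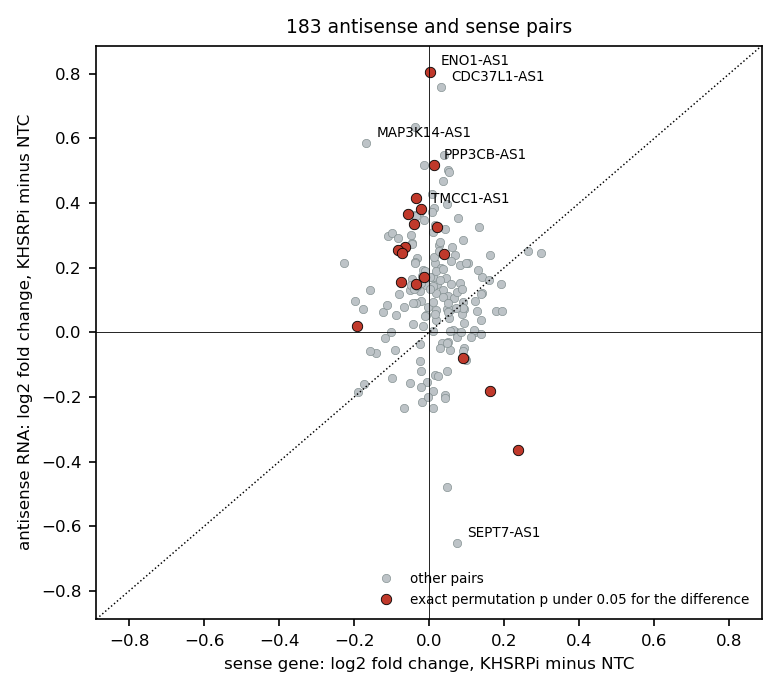
Log2 fold change of TPM + 1, mean of KHSRPi groups minus NTC, of each antisense RNA (vertical axis) against its sense gene (horizontal axis) for 183 pairs; red points have an exact permutation p under 0.05 for the difference (18 pairs), and the dotted line marks equal change. Most points lie above the line, and the sense genes span a narrower range than the antisense RNAs.

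By arrangement of the genes, the median log2 fold change of the members was 0.14 for overlaps at the 3′ ends (43 of 50 above 0), 0.14 for overlaps at the 5′ ends (60 of 77) and 0.06 for antisense genes inside the sense gene (24 of 33). It was 0.09 for head-to-head pairs (29 of 41) and 0.11 where the sense gene lay inside the antisense gene (13 of 14). Members sharing exonic bases with the sense gene had a median of 0.13 (121 of 150 above 0), and those sharing none had 0.09 (49 of 66). The differences between these classes were not tested.

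By level, the members at 1 to 2 TPM had a median of 0.09, against 0.03 for other tested genes of that level, and those at 2 to 5 TPM 0.15, against 0.03. Those at 5 to 10 TPM had 0.14, against 0.03, and those at 10 TPM or more 0.07, against 0.01. Across the 219 members with a GENCODE 29 transcript, the log2 fold change was hardly related to the length of the longest transcript (Spearman's correlation 0.04), its GC content (−0.13), or the density of the AU-rich pentamer ATTTA (0.09). These are descriptions over genes of the same libraries.

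Other long noncoding RNAs, 201 tested genes by GENCODE type that are not members, had a median log2 fold change of 0.06 with 128 above 0. With the term 8 of them were called higher and 0 lower, against 9 and 0 of the 224 members. Without a covariate, 33 of them were higher and 7 lower at an unadjusted p under 0.05 in limma, against 44 and 2 members. All KHSRPi libraries lay above all NTC libraries for 13 of them and below for 2, against 18 and 1 members. The counts of higher genes were thus similar in both classes, while the members had the larger median, 0.12. The difference between the classes was not tested. The 103 LINC-named genes had a median of 0.06 (68 above 0, 4 called higher with the term), and the 17 transcripts named -DT, -IT or -OT had 0.14 (12 above 0, 0 called). The 18 small nucleolar RNA host genes had −0.03 (7 above 0). Protein-coding genes (9806) had a median of 0.01, with 5593 above 0. Of the 23 genes of the nuclear exosome and its adaptors, 0 were called with or without the term, and their median was 0.02.

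Between replicate 3 and replicates 1 and 2, the members' share of calls was near that of all genes. Of the 224 members, 47 (21%) were higher and 18 (8.04%) lower in replicate 3 than in replicates 1 and 2 at an adjusted p under 0.05, against backgrounds of 18.7% and 11.6%. DDN-AS1, which overlaps the 5′ end of the dendrin gene DDN, had 18.4 TPM in KHSRPi#1 replicate 3, 20.4 in KHSRPi#2 replicate 3 and 19.0 in NTC replicate 3. In the other libraries it ranged from 11.9 to 14.7 TPM in KHSRPi and from 11.5 to 13.1 TPM in NTC. Its difference was 0.52 ± 0.07 on the log2 scale (SE, adjusted p = 0.000315). DHRS4-AS1 at 0.42, GCC2-AS1 at 0.75 and EIF3J-AS1 at 0.56 were also higher in replicate 3, and CIRBP-AS1 at −0.75, PIK3CD-AS1 at −0.56, PTOV1-AS2 at −0.48 and THUMPD3-AS1 at −0.26 lower. Quantile normalization moved the split to 31 higher and 27 lower, and the median over the members to −0.00, against 0.08 without it.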

How the data were processed

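The table holds TPM values that the authors deposited, 1 column for each of 9 CAL-1 libraries, and every column sums to 1000000. Its build is hg38, as listed in the submitters' processing notes. The sources used here give neither the counting tool nor the annotation or strand setting. TPM keeps no read totals, so depth in reads is unknown and no count model was run. The step between low values gave each library's depth relative to NTC replicate 1. No label says that replicates were separate cultures, so p-values reflect only the spread among these libraries, possibly technical.

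Genes averaging at least 1 TPM (10939 of 25540) were tested as log2(TPM + 1) by limma 3.58.1 in R 4.3.3, two-sided, with a mean-variance trend, and Benjamini-Hochberg adjustment covered all of them. This scale understates fold changes of low genes. The 3 groups entered 1 fit without covariates, and a second fit added a term for replicate 3. Antisense and sense genes were compared by exact permutation tests over libraries. The fitting code was tested on simulated data.

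Members and lists were chosen with earlier results of these data known. Named members were called in a comparison of groups without or with a replicate block, had 1 of the 8 smallest p per direction, or were among the 8 most abundant. Others were the 4 nearest either side of the threshold, the 6 highest and 4 lowest ratios to the sense gene, the 4 smallest p per direction for replicate 3, the 4 largest pair differences per direction, and ENO1-AS1, PPP3CB-AS1, OPA1-AS1, OIP5-AS1 and FGD5-AS1. One row near the threshold is not reported here. The members called only with the replicate 3 term were added after their values were seen. Promoters came from RefSeq (GRCh38.p14) and positions from GENCODE 29. Python 3.11.15, pandas 2.3.3, numpy 2.4.6, SciPy 1.17.1 and Matplotlib 3.10.9 were used. Alternatives were other pseudocounts, level filters, scalings and sample sets, a replicate block, and leaving out each library.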

Additional observations from a re-analysis of the deposited data

Results flagged for a closer look

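OPA1-AS1, an antisense row under the level threshold and so outside the comparisons, stood out because it had signal in 1 group while the control was at 0. It had 0.57, 0.59 and 0.52 TPM in KHSRPi#2, a mean of 0.56 TPM, and was listed at 0 in the 3 libraries of KHSRPi#1 and the 3 of NTC. OPA1, the gene of a mitochondrial fusion protein, had 49.8, 51.2 and 51.1 TPM in KHSRPi#1, 54.1, 47.3 and 52.0 TPM in KHSRPi#2, and 42.1, 48.5 and 50.5 TPM in NTC. Without the level filter limma called OPA1-AS1 in KHSRPi#2 against NTC (log2 fold change 0.64, adjusted p = 6.59e-06), in KHSRPi#2 against KHSRPi#1 (log2 fold change 0.64, adjusted p = 1.32e-05) and for the mean of the KHSRPi groups against NTC (log2 fold change 0.32, adjusted p = 0.000471). The 6 libraries of KHSRPi#1 and NTC, all at 0, have no spread in these fits. The row was also flagged for these same values, so the adjusted p-values are no separate support.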

How the results depend on the processing

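The median log2 fold change of the members, mean of KHSRPi groups minus NTC, stayed above 0 under every alternative run, from 0.06 with a pseudocount of 5 to 0.15 with a pseudocount of 0.1, and lay between 0.09 and 0.15 when 1 library was left out. Counts of called members depended on the fit. For the mean of the KHSRPi groups the count was 0 without a covariate, 9 with the replicate 3 term, 1 with replicates 1 and 2 alone (chosen after seeing the data), and 0 to 11 over all fits that left out 1 library: 0 to 1 without a covariate, 2 to 8 with the term (4 without NTC replicate 1, 7 without KHSRPi#2 replicate 2 or 3) and 1 to 11 with the replicate block (7 without KHSRPi#2 replicate 1 or 3). For KHSRPi#1 it was 0, against 2 with the term and 0 to 3 with 1 library left out. For KHSRPi#2 it was 1, against 5 with the term, 0 with no filter, 0 with replicates 1 and 2 alone and 0 with only the groups compared. It was also 0 at a mean TPM of at least 5, a filter that leaves out ENO1-AS1, the 1 member called. With 1 library left out it was 0 to 6 (4 with the block and without KHSRPi#1 replicate 3). For KHSRPi#2 minus KHSRPi#1 it was 0, and 0 to 1 with 1 library left out. For replicate 3 it was 65, against 35 with no filter and 34 to 65 with 1 library left out. At a mean TPM of at least 5 it was 29, but the 144 members under 5 TPM are not in that fit. The 18 pairs with an exact permutation p under 0.05 became 0 to 14 with 1 library left out. The causes were not tested, beyond the fewer genes or libraries that some of these settings hold.

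Correlations of deviations from group means between same-numbered libraries ran from 0.0398 to 0.324 for replicates 1 and 2. For replicate 3 they ran from 0.622 to 0.628. They cannot decide whether the numbers pair the samples, because the deviations within a group sum to 0. The replicate 3 difference thus enters those of replicates 1 and 2. The numbers were not treated as pairing the samples. A replicate block called 8 members higher for the mean, 3 for KHSRPi#1 and 6 for KHSRPi#2, against 0.942%, 0.32% and 0.612% of all tested genes, and 0 lower. ARHGAP31-AS1 in KHSRPi#1 was called with the block (adjusted p = 0.0303), in 4 of 9 block fits that left out 1 library, and in no other alternative (adjusted p from 0.0195 to 1 over all).

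Directions turned in 3 uncalled members. With 1 library left out and no covariate, LRRC75A-AS1 ran from −0.0140 to 0.0114, OIP5-AS1 from −0.0028 to 0.1222, PARD3-AS1 from −1.1373 to 0.1911, and PARD3-AS1 minus PARD3 from −1.1468 to 0.2126. With the term or the block, the reversed values were 0.0020, 0.0114 and 0.0139 for LRRC75A-AS1 and 0.1119, 0.2964 and 0.3649 for PARD3-AS1. Of 1244 alternative values of 45 results for single members and pairs, 1081 kept direction and side of the threshold, 109 newly passed it, 44 no longer passed it and 10 reversed. Level-named members, whose fold changes are not given, had 100 reversals among 1201 values. TPM gives no read depth, so how far depth limits the low members is unknown.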
